A study of Mus musculus with 12 samples.

Results

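Integrins are receptors that hold cells to matrix and to other cells, and each is a pair of an alpha and a beta chain. Of the integrin subunits that microglia and other myeloid cells are known to use, 10 genes were followed here, namely the 6 alpha subunits *Itgam*, *Itgax*, *Itgal*, *Itgav*, *Itga4* and *Itga6* and the 4 beta subunits *Itgb1*, *Itgb2*, *Itgb5* and *Itgb7*. They were chosen by symbol from the 55487 genes of the count table, with earlier results of these data known. Their transcripts were measured by bulk RNA-seq in sorted microglia of 13-day-old YARG mice (P13). These mice carry yellow fluorescent protein (YFP) behind the *Arg1* coding sequence, so that YFP reports *Arg1*, the gene of the arginine-cleaving enzyme arginase-1. Cells from the brain area of the basal forebrain and striatum were sorted as negative for CD206 and positive for CX3CR1, and were split by YFP into ARG1+ and ARG1- microglia. All groups share this strain, age, area and gate, and differ in YFP and in sex. Each of the 4 groups (ARG1- female, ARG1+ female, ARG1- male and ARG1+ male) has 3 libraries, which gives 6 libraries per population. Each library pools tissue of several mice, so the spread between libraries is a spread between pools. As the paper describes the sort, both populations were split by YFP from the same pooled tissue. The libraries of the populations are then paired by pool and are not all independent. The labels do not show the pairs, so the tests below treat the libraries as unpaired. The split follows the reporter protein and not the transcript. *Arg1* itself had 2 counts in ARG1+ female replicate 8, 52 in ARG1+ female replicate 15 and 0 in the other 10 libraries. CD11b, the protein of *Itgam*, was not part of the gate.

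Total counts lay between 28356659 and 60625170 per library. In ARG1- libraries 6.81 to 12.8% of the tested genes had no count, against 1.603 to 7.34% in ARG1+ libraries. The summed level of 10 microglial marker genes was 48638 to 65160 CPM (counts scaled to the TMM-normalized library total) in ARG1- and 38444 to 49439 CPM in ARG1+ libraries, and 7 of these genes were lower and 1 was higher in ARG1+ microglia. The summed levels of 8 border macrophage markers (110 to 146 against 115 to 241 CPM) and 8 dendritic cell markers (20.6 to 35.4 against 21.8 to 43.8 CPM) overlapped between the populations. Those of 7 monocyte markers (7.46 to 16.6 against 3.15 to 7.05 CPM, with *Chil3* at 0), 8 platelet markers (20.4 to 39.3 against 10.4 to 20.03 CPM, with *Ppbp* and *Gp6* at 0) and 7 astrocyte markers (176 to 224 against 130 to 151 CPM) were higher in every ARG1- library than in any ARG1+ library. Those of 9 neutrophil markers (3.75 to 6.96 against 5.84 to 11.5 CPM, with *Ly6g* and *Retnlg* at 0), 13 lymphocyte markers (0.592 to 5.68 against 2.22 to 3.61 CPM, with *Cd3e*, *Cd3d*, *Cd3g*, *Cd8a*, *Cd4* and *Ncr1* at 0), 8 endothelial markers (29.8 to 58.1 against 44.8 to 83.5 CPM, with *Cldn5* at 0), 6 mural markers (0 to 3.54 against 0 to 1.19 CPM, with *Kcnj8* at 0), 8 oligodendrocyte markers (265 to 388 against 171 to 266 CPM) and 8 neuronal markers (4.50 to 20.2 against 2.31 to 10.7 CPM) overlapped. In ARG1- libraries *Mrc1* (mean 121 CPM), *Plac8* (6.75), *Gp9* (28.4) and *Slc1a3* (176) made up most of the border macrophage, monocyte, platelet and astrocyte sums. *Mrc1* is the gene of CD206, for which the cells were sorted as negative, and its transcript had a mean of 147 CPM in ARG1+ libraries. Fitted changes were above 0 in 1 of 4 monocyte, 2 of 3 platelet and 2 of 7 astrocyte markers tested. Outside the microglial list, *Klrb1c* (lymphocyte, 0 against 0.505 CPM) was called higher in ARG1+, and *Plac8*, *Gp9*, *Slc1a3* and *Cnp* (oligodendrocyte) lower. The part of other cells in the integrin values was not tested.

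An alpha chain decides most of the ligand choice of the pair, and the beta chain carries the tail to which talin and kindlin bind when the pair is switched on from inside the cell. In microglia, αMβ2 (*Itgam* with *Itgb2*) is complement receptor 3, which takes up complement-tagged material, including synapses during development. The αv chain binds the RGD motif of matrix proteins and of latent TGF-β, and α6β1 binds laminin. The leukocyte chains αL, αX, α4 and β7 are best known from blood and lymphoid cells, and αX (CD11c) also marks a developmental state of microglia.

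The levels per exon length fell into tiers. TPM (counts per exon length as a share of the library, computed here) was used to order genes within the 12 libraries. *Itgb5*, the beta chain that pairs with αv alone, had the highest mean TPM, 2643 ± 395 (SD, n = 12), and lay above every other subunit in all 12 libraries. *Itgam* (628 ± 189 TPM), *Itgb1* (564 ± 110 TPM), the beta chain with the widest choice of partners, and *Itgb2* (497 ± 80.6 TPM), the beta chain of leukocytes, followed with overlapping ranges. *Itga6* came next with 190 ± 50.1 TPM, below *Itgb2* and above the following gene in all 12 libraries. *Itgav* had 45.8 ± 16.04 TPM, a range that overlapped that of *Itga9*, a matrix receptor chain outside the 10 (47.5 ± 14.5 TPM). *Itgax* (4.85 ± 4.10 TPM), *Itgal* (2.595 ± 2.62 TPM), *Itgb7* (0.491 ± 0.803 TPM) and *Itga4* (0.267 ± 0.221 TPM) formed the lowest tier, and their ranges overlapped each other. Thus 3 of the 4 beta subunits and 3 of the 6 alpha subunits were above 20 TPM on average, and the other 4 genes were below 5 TPM.

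**Figure D1:**
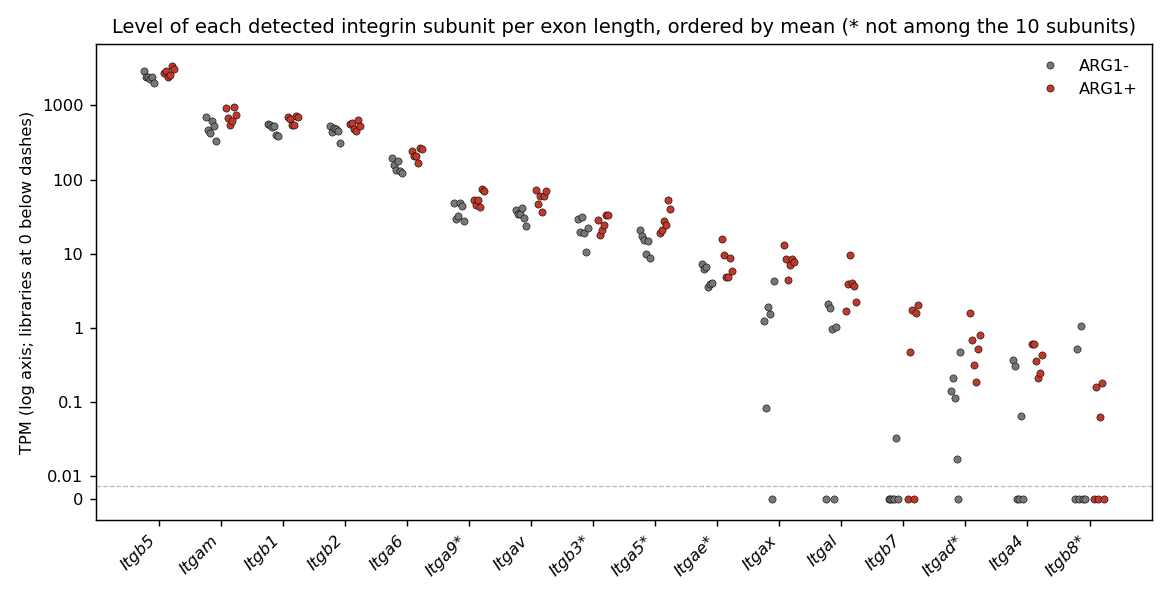
TPM of each integrin subunit that passed the filter on low counts, on a log axis, with 1 point per library (grey ARG1-, red ARG1+) and genes ordered by their mean over 12 libraries; libraries at 0 are drawn below the dashed line. *Itgb5* stands alone at the top (mean 2643 TPM), the 5 highest of the 10 subunits have means from 190 to 2643 TPM, and *Itgax*, *Itgal*, *Itgb7* and *Itga4* have libraries at 0.

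Of the 10 subunits, all of which passed the filter on low counts, 1 rose in ARG1+ microglia and 0 fell at an adjusted p under 0.05 (edgeR's quasi-likelihood test over 12 libraries with sex as a second term). That 1 subunit, *Itgb7*, reached the filter through ARG1+ libraries alone, the other 9 reached it in each population alone, and 0 of these 9 passed the test. Of all 16908 genes tested, 15.9% passed this limit, 6.44% higher and 9.42% lower in ARG1+ microglia. The unadjusted p was under 0.05 for 4 of the 10 (*Itgb7*, *Itgav*, *Itgax* and *Itga6*), against 29.1% of all genes. In none of the 10 did all libraries of one population lie above all of the other, which 10.05% of all genes did. The fitted change was above 0 for all 10 subunits, against 53.4% of all genes, with a median log2 fold change (log2FC) of 0.43 against 0.05. This count and median include *Itgb7*, whose sign follows from its entry through ARG1+ libraries alone. The changes of *Itgb2* (0.03) and *Itgb5* (0.01) were near 0, and both fell below 0 without ARG1- male replicate 14. In bulk RNA, fewer cells that carry a transcript and less of it per cell cannot be told apart.

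The 10 subunits differ in depth, and so in precision. The 6 with a mean over 20 CPM (*Itgam*, *Itgav*, *Itga6*, *Itgb1*, *Itgb2* and *Itgb5*) had a median log2FC of 0.24, against -0.03 for all genes over 20 CPM, and 0 of them passed where 26.7% of such genes did. The 4 with a lower mean (*Itgax*, *Itgal*, *Itga4* and *Itgb7*) had a median log2FC of 2.09, against 0.16 for all genes under 20 CPM, and 1 passed where 8.07% of such genes did. Both this median and the 1 pass include *Itgb7*, which was tested through ARG1+ libraries alone. The 4 are compared as a description. The higher levels of these 4 in ARG1+ libraries go along with the smaller share of tested genes at 0 in those libraries, and its part in these values was not tested.

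**Figure D2:**
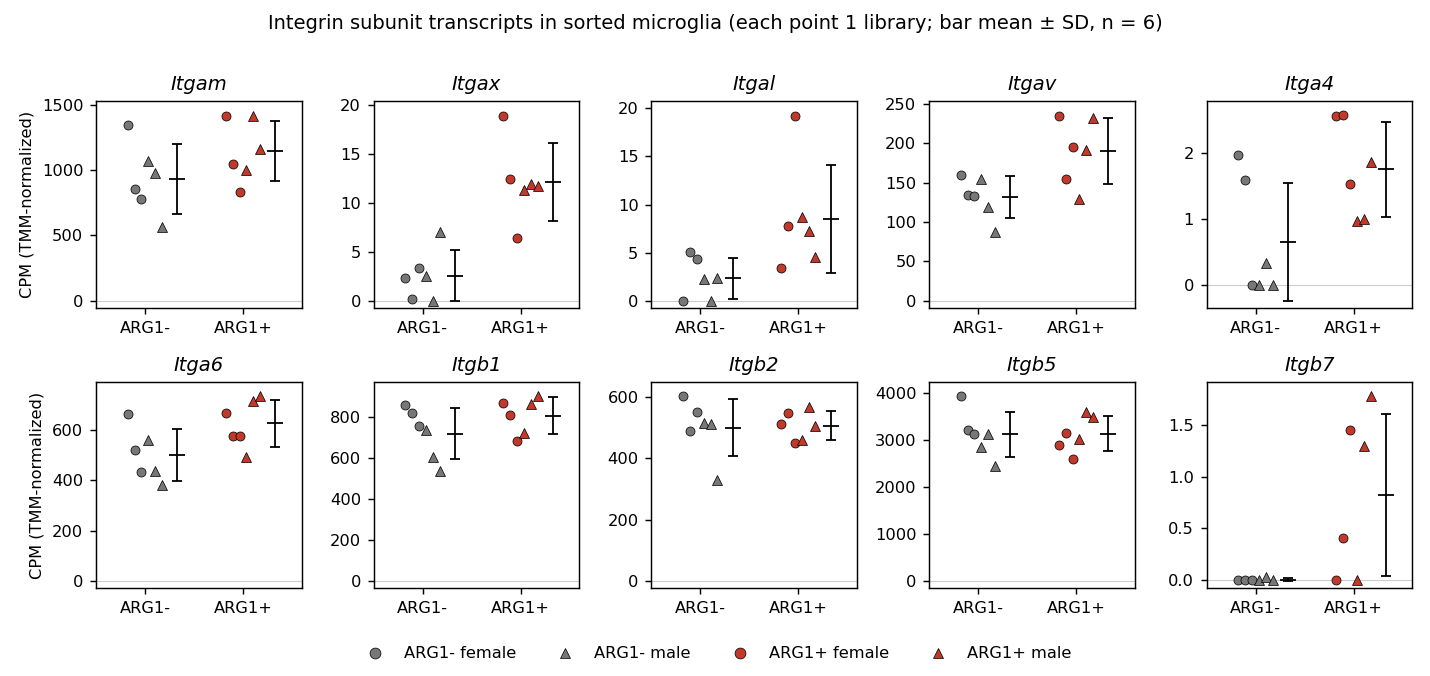
TMM-normalized CPM of the 10 integrin subunits, with 1 point per library (circles female, triangles male, grey ARG1-, red ARG1+) and a bar for the mean ± SD of the 6 libraries of a population; each panel has its own axis from 0. The populations overlap in every panel, and the widest gaps are in *Itgax* (2.55 against 12.1 CPM) and *Itgb7* (1 count in all ARG1- libraries).

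The beta chain of α4β7, *Itgb7* (chr15:102215995-102231944, minus strand, GRCm38), was the subunit that passed. It had 1 count in the 6 ARG1- libraries together, in male replicate 6, and 185 counts in the ARG1+ libraries. In ARG1+ females it had 0, 0.408 and 1.45 CPM, and in ARG1+ males 0, 1.30 and 1.78 CPM. Thus 4 ARG1+ libraries, 2 of each sex, lay above every ARG1- library, and the other 2 held no count. The ratio of the summed counts, scaled by library totals, was 195 with a 95% counting interval of 34.6 to 7750. The counts were summed over the libraries of a population, so this interval leaves out the spread between libraries. It also takes every read as a separate molecule, which reads without molecular identifiers cannot show. The fitted log2FC was 3.88 (SE 0.94, adjusted p = 0.0155), a value that depends on the prior count of 2. The filter on low counts asks for 3 libraries over 0.283 CPM, which 4 ARG1+ libraries and 0 ARG1- libraries of *Itgb7* met, so that the gene was tested only because of the population in which it is high. Of the 1681 genes that met the filter through ARG1+ libraries alone, 236 were called higher and 0 lower (14.04% higher). With no filter on low counts the adjusted p of *Itgb7* was 0.0194. The highest count was 62, so the call rests on a trace transcript, and without ARG1- male replicate 6, the library with the lone count, the adjusted p was 0.0584. Over the alternatives with both sexes the adjusted p of *Itgb7* ran from 0.00285 to 0.0584.

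The 5 genes whose log2 CPM followed *Itgb7* most closely over the 12 libraries were *Dusp4* (Pearson r = 0.996), *Grik4* (0.977), *Tmem59l* (0.976), *Dzank1* (0.974) and *4930520M14Rik* (0.954). They share its sparsity, with 0 to 2 counts in all ARG1- libraries together and 56 to 122 in the ARG1+ libraries, and the points share libraries and depth, so that the correlation is a description only.

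*Itgam* (chr7:128062640-128118491) and *Itgax* (chr7:128129547-128150657) both lie on the plus strand, with 11055 bases between them, and *Itgad*, the gene of the αD chain, follows. The 250 bases before the RefSeq start of *Itgam*, *Itgax* and *Itgb7* (GRCm38.p6) are given below, for the alpha subunit with the highest level, its neighbor at a low level and the subunit that passed the test. Capitals mark GAGGAA and GGAAGT on either strand, forms of the core that PU.1, the master factor of myeloid cells, and other ETS factors can bind; they overlap each other on GGAA. Sequences are written 5′ to 3′ on the strand of the gene.
*Itgam* promoter, chr7:128062390-128062639, plus strand: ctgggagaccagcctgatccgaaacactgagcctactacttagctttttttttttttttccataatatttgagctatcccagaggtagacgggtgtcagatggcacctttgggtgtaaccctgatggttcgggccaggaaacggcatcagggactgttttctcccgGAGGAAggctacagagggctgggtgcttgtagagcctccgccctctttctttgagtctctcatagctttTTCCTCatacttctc
*Itgax* promoter, chr7:128129300-128129549, plus strand: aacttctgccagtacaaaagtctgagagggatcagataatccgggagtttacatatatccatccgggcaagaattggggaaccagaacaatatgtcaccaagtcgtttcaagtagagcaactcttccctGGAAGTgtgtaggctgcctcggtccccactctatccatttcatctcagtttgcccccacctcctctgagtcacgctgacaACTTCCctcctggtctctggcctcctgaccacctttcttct
*Itgb7* promoter, chr15:102231936-102232185, minus strand: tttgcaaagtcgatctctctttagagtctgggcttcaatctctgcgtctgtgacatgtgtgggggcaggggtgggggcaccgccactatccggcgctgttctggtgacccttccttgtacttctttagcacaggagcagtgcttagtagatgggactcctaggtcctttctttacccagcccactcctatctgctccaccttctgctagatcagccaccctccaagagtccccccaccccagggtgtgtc
The *Itgam* window held GAGGAA once on each strand and no GGAAGT, the *Itgax* window held GGAAGT once on each strand and no GAGGAA, and the *Itgb7* window held neither. Of 32851 promoters in the RefSeq table, 23.3% held GAGGAA, 19.7% held GGAAGT and 36.7% held at least 1 of them in the same 250 bases. Promoters were found for 7 of the 10 subunits. Of the other 4, the *Itgav* window held each motif on each strand, the *Itgb1* window held GAGGAA once, and those of *Itga4* and *Itgb5* held neither. These are matches of letters and say nothing on binding.

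The CD11 chains, which pair with the β2 chain CD18, gave their widest gap in *Itgax*, the gene of CD11c. *Itgax* had 2.25, 0.150 and 3.32 CPM in ARG1- females and 2.54, 0 and 7.02 CPM in ARG1- males. In ARG1+ females it had 18.8, 12.4 and 6.41 CPM, and in ARG1+ males 11.3, 11.9 and 11.7 CPM. Within each sex, every ARG1+ library lay above every ARG1- library, but the populations overlapped across sexes, because ARG1- male replicate 14 lay above ARG1+ female replicate 15. The share of all genes without overlap within a sex, at 3 against 3 libraries, was not counted. The mean was 2.55 ± 2.57 CPM in ARG1- and 12.1 ± 3.97 CPM in ARG1+ microglia, 4.75-fold higher, with a log2FC of 2.26 (SE 0.88, 95% interval 0.36 to 4.17) that did not pass over all genes (adjusted p = 0.104). With DESeq2's Wald test, which called 21.99% of its genes, *Itgax* passed (adjusted p = 0.0284), and over the alternatives with both sexes the adjusted p ran from 0.0284 to 0.187. Counts of *Itgax* lay between 0 and 594 per library.

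*Itgal*, the gene of CD11a (chr7:127296260-127335138), the alpha chain of the lymphocyte function antigen that binds ICAMs, had 0, 5.06 and 4.34 CPM in ARG1- females and 2.22, 0 and 2.34 CPM in ARG1- males. It had 3.36, 7.79 and 19.2 CPM in ARG1+ females and 8.68, 7.203 and 4.59 CPM in ARG1+ males. No ARG1+ library was at 0 and 2 ARG1- libraries were, and 4 of the 6 ARG1+ libraries lay above all ARG1- libraries. The log2FC was 1.90 (SE 0.99, adjusted p = 0.232), with a 95% interval from -0.26 to 4.06, and ARG1+ female replicate 15 was more than 2 times as high as any other library.

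*Itgam* (CD11b) had 1343, 857 and 782 CPM in ARG1- females, 1070, 978 and 563 CPM in ARG1- males, 1414, 1051 and 836 CPM in ARG1+ females and 1003, 1414 and 1165 CPM in ARG1+ males. The populations overlapped over most of their range, and the log2FC was 0.30 (SE 0.20, 95% interval -0.12 to 0.73, adjusted p = 0.344). Of the *Itgam* exons, 3450 bases also belong to *Gm49368*, a read-through gene on the same strand whose counts were 78.4 to 90.2% of those of *Itgam*. In other genes with shared exons, reads were counted for both genes, so the *Itgam* values hold reads that the table also gives to *Gm49368*. *Itgb2* (chr10:77530252-77565708), the chain that all CD11 proteins need, had 500 ± 92.5 CPM in ARG1- and 507 ± 46.9 CPM in ARG1+ microglia (log2FC 0.03, SE 0.12, adjusted p = 0.911). Its 95% interval, -0.24 to 0.30, bounds the change from both sides, and no ARG1+ library lay above all ARG1- libraries.

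Among the matrix receptors, *Itgav* (chr2:83724397-83806916), the αv chain, had 160, 135 and 133 CPM in ARG1- females and 155, 119 and 87.2 CPM in ARG1- males. It had 235, 155 and 196 CPM in ARG1+ females and 129, 191 and 233 CPM in ARG1+ males. Thus 4 of the 6 ARG1+ libraries lay above all ARG1- libraries, and the lowest was at the level of ARG1- libraries. The mean was 131 ± 26.5 CPM in ARG1- and 190 ± 41.9 CPM in ARG1+ microglia, with a log2FC of 0.53 (SE 0.17, 95% interval 0.16 to 0.91) and an adjusted p of 0.0544. This lies at the limit, and the call turned with the setting. *Itgav* passed with DESeq2's Wald test (adjusted p = 0.00996) and with DESeq2 size factors (0.0397), but once each library's trend on exon length was removed the log2FC was 0.15 (adjusted p = 0.563). The *Itgav* exons span 10744 bases. *Itgb5* (chr16:33829665-33949338), its partner in the vitronectin receptor αvβ5, had 3116 ± 487 CPM in ARG1- and 3127 ± 373 CPM in ARG1+ microglia (log2FC 0.01, SE 0.11, 95% interval -0.24 to 0.25, adjusted p = 0.9752).

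*Itga6* (chr2:71745616-71858416), the laminin-binding α6 chain, had 665, 521 and 434 CPM in ARG1- females and 561, 438 and 382 CPM in ARG1- males. It had 668, 575 and 576 CPM in ARG1+ females and 492, 714 and 733 CPM in ARG1+ males. Of the ARG1+ libraries 3 lay above all ARG1- libraries, and the log2FC was 0.33 (SE 0.14, 95% interval 0.01 to 0.64, adjusted p = 0.153). With the trend on exon length removed it was 0.01 (adjusted p = 0.9753), and with library totals as the only scaling, an alternative chosen after seeing the data, it was 0.42 and passed (adjusted p = 0.0433). *Itgb1* (chr8:128685654-128733200), the shared chain of the laminin and fibronectin receptors, had 717 ± 125 CPM in ARG1- and 805 ± 88.1 CPM in ARG1+ microglia (log2FC 0.18, SE 0.12, adjusted p = 0.347). *Itga4* (chr2:79255426-79333123), which pairs with β1 to bind VCAM1 and with β7 to bind MAdCAM-1, was sparse. It had 0 counts in 3 of the 6 ARG1- libraries and in no ARG1+ library, and its mean was 0.652 ± 0.898 CPM in ARG1- and 1.76 ± 0.717 CPM in ARG1+ microglia. Its log2FC of 1.92 carried an SE of 1.16 and an interval from -0.59 to 4.44 (adjusted p = 0.3003), and 1124 bases of its exons are shared with *Cerkl* on the other strand, which had at most 22 counts per library.

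**Figure D3:**
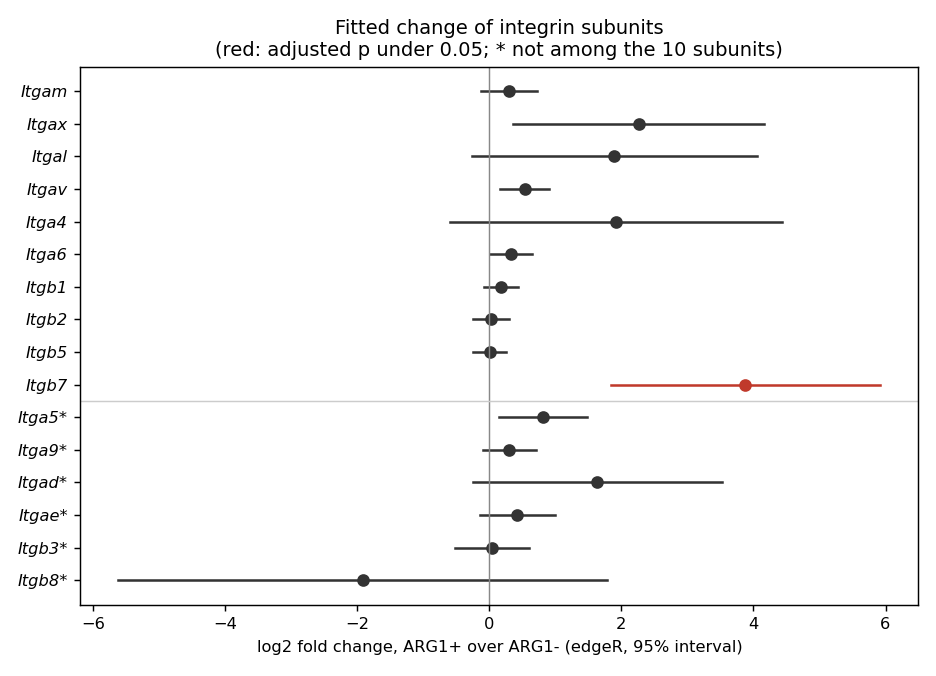
Fitted log2FC of ARG1+ over ARG1- microglia (points) with 95% intervals (lines) for the 10 integrin subunits and, below the grey line and marked with an asterisk, 6 other subunits; red marks an adjusted p under 0.05. *Itgb7* alone is red (3.88, interval 1.84 to 5.92), and the intervals of *Itgb2* and *Itgb5* are narrow around 0.

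Since an integrin is a pair, the alpha transcript was set against the beta transcript within each library, a ratio of TPM that does not depend on the scaling between libraries. *Itgam* to *Itgb2* was 1.12 ± 0.175 (SD, n = 6) in ARG1- microglia against 1.37 ± 0.209 in the ARG1+ population, and 3 ARG1+ libraries lay above all ARG1- libraries. *Itgax* to *Itgb2* was 0.00384 ± 0.00499 against 0.0151 ± 0.00467, with 4 ARG1+ libraries above all ARG1- libraries. *Itgal* to *Itgb2* was 0.00229 ± 0.00199 against 0.00805 ± 0.00608, also with 4 above. Of the alpha chains set against β2, *Itgam* was by far the most abundant in both populations. *Itgav* to *Itgb5* was 0.0140 ± 0.00216 against 0.0203 ± 0.00506, with 3 ARG1+ libraries above, and *Itgav* to *Itgb1* was 0.0696 ± 0.00705 against 0.0895 ± 0.0168, with 4 above. *Itga6* to *Itgb1* was 0.316 ± 0.0348 against 0.351 ± 0.0299, with 3 above, and *Itga4* to *Itgb1* was 0.000234 ± 0.000309 against 0.000634 ± 0.000240, with 2 above. The ratio of *Itga4* to *Itgb7* has no value in 7 libraries, where *Itgb7* was at 0. The populations overlapped in every pair, and the ratios are given as a description with no test. In every pair the alpha exons are longer than the beta exons (*Itgav* 10744 bases, *Itgb5* 3553, *Itgb1* 4081). A trend on exon length that differs between libraries therefore stays in the ratios, and its part was not tested. Removing that trend lowered the fitted changes of *Itgav* and *Itga6*, as given above.

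**Figure D4:**
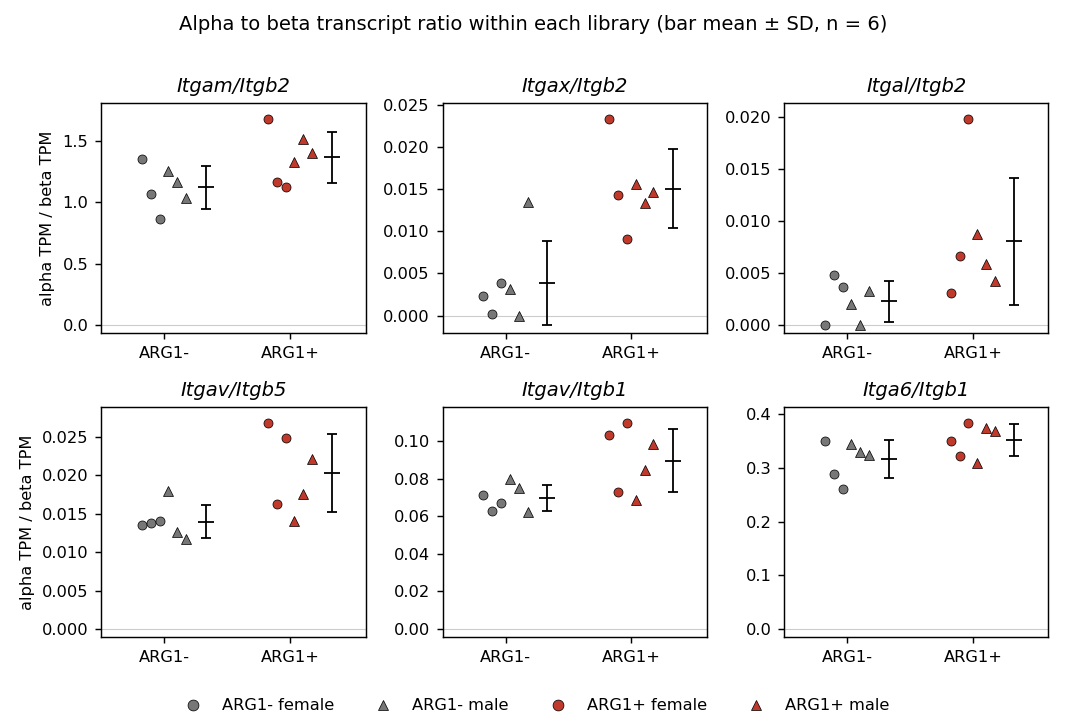
Ratio of alpha to beta subunit TPM in each library for 6 pairs that are known to form a receptor, with circles for female and triangles for male libraries (grey ARG1-, red ARG1+) and a bar for the mean ± SD of 6 libraries. *Itgam*/*Itgb2* lies around 1 in both populations (1.12 and 1.37), and *Itgav*/*Itgb5* lies between 0.0118 and 0.0268 in all libraries.

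Taken by sex, the 10 subunits gave 0 calls in females (where 6.76% of all genes passed) and 0 in males (5.13%). The unadjusted p was under 0.05 for 1 subunit in females (*Itgb7*) and for 4 in males (*Itgav*, *Itga6*, *Itgb1* and *Itgb7*), against 22.9 and 22.8% of all genes. The fitted change was above 0 for 7 subunits in females and for all 10 in males, with *Itgb7*, tested through ARG1+ libraries alone, in both counts. *Itgb5* had a lower mean in ARG1+ than in ARG1- females (3424 ± 436 CPM in ARG1-, 2883 ± 275 CPM in ARG1+, n = 3, log2FC -0.25) and a higher one in males (2808 ± 342 and 3371 ± 306 CPM, log2FC 0.26), with neither past the limit (adjusted p = 0.265 and 0.231). *Itgb1* had 810 ± 52.5 and 784 ± 94.5 CPM in females (log2FC -0.05, adjusted p = 0.900) and 624 ± 104 and 826 ± 95.6 CPM in males (log2FC 0.40, adjusted p = 0.118). The difference between the sexes, females minus males, was -0.51 for *Itgb5* (unadjusted p = 0.0136, adjusted p = 0.486) and -0.45 for *Itgb1* (unadjusted p = 0.0453, adjusted p = 0.522). None of the 10 subunits passed in this interaction with edgeR or with DESeq2, and edgeR called 0.00% of all genes there and 9.32% at an unadjusted p under 0.05, where 2 subunits stood. Between females and males of 1 population, 0 subunits passed in ARG1- microglia (0.0946% of all genes) and 0 in ARG1+ microglia (0.0355%). *Itgb1* and *Itgb5* had an unadjusted p under 0.05 in ARG1- microglia, both higher in females (log2FC 0.38 and 0.29), where 10.01% of all genes had one. None of the 10 had such a p in ARG1+ microglia, where 3.12% of all genes did.

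Outside the 10 subunits, 17 other integrin genes were in the table, and 6 passed the filter. None of the 6 passed the test. *Itga5*, the fibronectin receptor chain, came nearest, with 26.2 ± 9.11 CPM in ARG1- and 46.5 ± 18.7 CPM in ARG1+ microglia (log2FC 0.81, SE 0.31, adjusted p = 0.0969), and was the only 1 with an unadjusted p under 0.05. In males *Itga5* rose from 19.7 ± 6.68 to 59.4 ± 18.2 CPM (log2FC 1.59, SE 0.30, adjusted p = 0.0226), with no overlap, and in females it had 32.7 ± 5.95 and 33.7 ± 6.92 CPM (log2FC 0.04, adjusted p = 0.960). The difference of -1.55 between the sexes had an unadjusted p of 0.00340 and an adjusted p of 0.433 in edgeR and passed in DESeq2 (adjusted p = 0.0342), which called 1.83% of all genes in this interaction. *Itgb3*, the chain of the vitronectin receptor αvβ3, had 47.0 ± 16.9 CPM in ARG1- and 47.5 ± 11.3 CPM in ARG1+ microglia (log2FC 0.04, adjusted p = 0.940). By sex its means went opposite ways, from 58.4 ± 13.5 to 39.8 ± 9.49 CPM in females (log2FC -0.55, adjusted p = 0.272) and from 35.6 ± 11.7 to 55.2 ± 7.30 CPM in males (log2FC 0.63, adjusted p = 0.204). Its libraries did not overlap in males, and neither did those of *Itga5*, *Itgae*, *Itgax*, *Itgal* and *Itga4*. An exact permutation of 3 against 3 libraries gives no p below 0.1, and the share of all genes without overlap within a sex was not counted. The difference of -1.18 between the sexes for *Itgb3* had an unadjusted p of 0.0117 and an adjusted p of 0.486 in edgeR and of 0.161 in DESeq2. *Itga9* had a log2FC of 0.30 (adjusted p = 0.312) and *Itgae*, the αE partner of β7, of 0.43 (adjusted p = 0.315). *Itgad*, the third neighbor on chromosome 7, had 1.63 (adjusted p = 0.239), and *Itgb8*, which frees TGF-β with αv, had -1.91 (adjusted p = 0.503) at 0 counts in 7 of 12 libraries. *Itgb6* had no count in any library, which leaves room for 3 counts, or up to 0.102 CPM, per library.

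The proteins that switch integrins on and off, link them to actin and signal from them were read from lists of 56 genes, chosen with earlier results known, of which 54 were tested. Of these, 6 rose and 8 fell in ARG1+ microglia (11.1 and 14.8%), beside 6.44 and 9.42% of all genes, with a median log2FC of 0.14. Since these genes are well expressed, the share over 20 CPM is the closer comparison, and there 12 of 39 passed (30.8%) beside 26.7% of all such genes. With DESeq2 size factors and with library totals as the only scaling 8 rose and 5 fell, with DESeq2's Wald test 9 rose and 8 fell, and with the trend on exon length removed 2 rose and 8 fell, so the balance of rises and falls depends on the setting. The count of 14 was 8 without ARG1+ male replicate 12 and 9 without ARG1- female replicate 13, ARG1+ female replicate 7, ARG1- male replicate 14 or ARG1+ male replicate 16.

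Of 15 activators tested, *Dock2*, an exchange factor of Rac in leukocyte migration, rose from 299 ± 46.0 to 456 ± 130 CPM (log2FC 0.61, adjusted p = 0.0479). *Fyb*, the ADAP adaptor of inside-out signaling, rose from 121 ± 17.3 to 161 ± 16.6 CPM (log2FC 0.41, adjusted p = 0.0268). The lowest ARG1+ library of *Fyb* (148 CPM) lay above the highest ARG1- library (142 CPM). *Rap1a*, the small GTPase that recruits talin, fell from 91.8 ± 28.3 to 53.4 ± 14.1 CPM (log2FC -0.76, adjusted p = 0.0412). The talin and kindlin genes themselves did not pass, with a log2FC of 0.29 for *Tln1* (adjusted p = 0.467) and of -0.22 for *Fermt3* (adjusted p = 0.213).

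Of 11 genes listed as inhibitors or competitors at the integrin tail, 3 rose and 2 fell. *Dok2*, an adaptor that can take the place of talin on beta tails, had no count in 5 of the 6 ARG1- libraries and 1.59 CPM in ARG1- male replicate 5, against 2.76 to 9.15 CPM in ARG1+ libraries (log2FC 4.93, SE 1.34, adjusted p = 0.0264). *Dok2* met the filter through ARG1+ libraries alone (6, against 1 ARG1- library), as *Itgb7* did, and the counts of rises above include it. *Tns1* (8.72 ± 4.74 to 24.1 ± 8.67 CPM, log2FC 1.52, adjusted p = 0.0101) and *Tns3* (17.9 ± 8.45 to 48.1 ± 15.02 CPM, log2FC 1.42, adjusted p = 0.0113) also rose. They encode tensins, which bind beta tails and tie them to actin, so that their place among inhibitors is a matter of choice. *Cib1*, a calcium-binding protein of alpha tails, fell, with every ARG1+ below every ARG1- library, from 118 ± 13.4 to 58.3 ± 9.21 CPM (log2FC -1.01, SE 0.11, adjusted p = 3.7e-04), and *Itgb1bp1*, the ICAP-1 protein of the β1 tail, fell from 39.3 ± 7.68 to 23.5 ± 6.26 CPM (log2FC -0.74, adjusted p = 0.0194).

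Of 18 adaptors, *Git2*, a scaffold at focal complexes, rose (137 ± 17.7 to 207 ± 21.9 CPM, log2FC 0.60, adjusted p = 0.00323), with all ARG1+ above all ARG1- libraries. The adhesion proteins *Tes* (log2FC -0.78, adjusted p = 0.00717), *Parvg*, the parvin of blood cells (-0.58, adjusted p = 0.0124), and *Ilk*, the pseudokinase that parvins bind (-0.25, adjusted p = 0.0367), fell. *Ilk* went from 237 ± 12.9 to 199 ± 9.86 CPM. Of 10 kinases and signaling genes, 0 rose and 2 fell. *Tyrobp*, the DAP12 adaptor that carries signals of CD11b/CD18 and of other microglial receptors, fell from 1316 ± 137 to 660 ± 160 CPM (log2FC -0.997, adjusted p = 0.00153), and its highest ARG1+ library (863 CPM) lay below its lowest ARG1- library (1173 CPM). The *Src* family kinase *Lyn* fell too (log2FC -0.25, adjusted p = 0.0419), and *Syk* had a log2FC of 0.15 (adjusted p = 0.638).

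**Figure D5:**
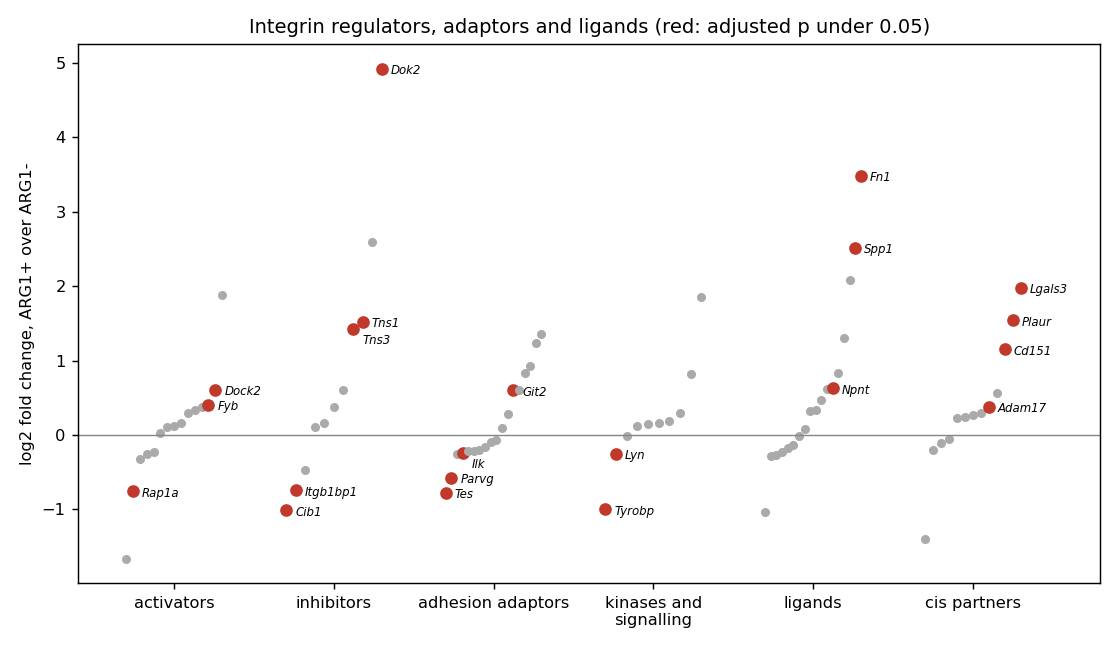
Fitted log2FC of ARG1+ over ARG1- microglia for each tested gene of 6 lists around integrins, sorted within a list; red points with names have an adjusted p under 0.05 and grey points do not. Calls go both ways among activators, inhibitors and adaptors, downward among kinases and signaling genes (*Tyrobp* -0.997), and upward among ligands and cis partners (*Spp1* 2.52, *Lgals3* 1.98).

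Of 38 ligand genes 18 were tested, and 3 rose and 0 fell (16.7% higher, beside 6.44% of all genes). *Spp1*, the RGD protein osteopontin that αv and α4 integrins bind, rose from 36.2 ± 14.4 to 213 ± 73.7 CPM (log2FC 2.52, adjusted p = 5.8e-04). *Npnt*, nephronectin, rose from 147 ± 26.5 to 226 ± 35.3 CPM (log2FC 0.63, adjusted p = 0.0118). *Fn1*, fibronectin, was at 0 in all 6 ARG1- libraries and had 0, 0.715 and 0 CPM in ARG1+ females and 0.409, 1.95 and 1.07 CPM in ARG1+ males, which is at least 8.55-fold higher with 3 counts per library as the floor (adjusted p = 0.0351). *Fn1* too met the filter through ARG1+ libraries alone (4, against 0). Of all genes that did so, 14.04% were called higher and 0 lower. The share of 16.7% among ligands thus counts a gene that was tested only because of the population in which it is high. *Madcam1*, the ligand of α4β7, had a log2FC of 2.08 (adjusted p = 0.470), and *Vcam1*, that of α4β1, of 0.33 (adjusted p = 0.815). The ligand and partner lists were chosen with earlier results of these data known, so their shares are a description only. Of 13 genes listed as partners of integrins at the cell surface (cis partners), 4 rose and 0 fell (30.8% higher, beside the same 6.44%). They were *Lgals3*, the sugar-binding galectin-3 (1.90 ± 1.03 to 7.68 ± 1.48 CPM, log2FC 1.98, adjusted p = 0.00666), *Plaur*, the urokinase receptor (6.61 ± 4.86 to 18.8 ± 5.73 CPM, log2FC 1.54, adjusted p = 0.0139), *Cd151*, the tetraspanin of laminin-binding integrins (4.21 ± 1.80 to 9.06 ± 2.63 CPM, log2FC 1.15, adjusted p = 0.0328), and *Adam17*, a sheddase (log2FC 0.38, adjusted p = 0.0430). *Adam17* lay outside the naming rule and was added after its value was seen.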

How the data were processed

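The 10 subunits and all gene lists were chosen with earlier results of these data known. The authors amplified cDNA with SMART-Seq v4, made Nextera XT libraries, aligned single-end reads with STAR 2.6.1d to GRCm38 and counted them per gene with featureCounts 1.5.1 (versions from the submitters' processing notes). The deposited values are these raw counts, without normalization, and 0 columns of per-sample values were left unused. The strand setting was not given in the sources used here. Of genes wholly within exons of a deeper gene, 18 of 18 on the same and 49 of 49 on the opposite strand held counts, so shared exons were read as counted for both genes.

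Symbols, positions and exon lengths came from GENCODE M21, which matched 55227 of 55487 identifiers. For the tests, edgeR 4.0.16 was run under R 4.3.3. The filter on low counts was filterByExpr on the 4 groups (16908 genes left). Counts were scaled by TMM and fitted with glmQLFit and glmQLFTest, with sex and ARG1 status as terms. Effects within a sex, their difference and sex effects came from a fit of 4 group means. P values were adjusted by Benjamini–Hochberg over all genes tested, with a limit of 0.05. The prior count was 2, the floor 3 counts per library, and intervals are 95%. The tests were checked on simulated counts. The ARG1 test called 42 of 200 genes changed 2-fold, with 4 unchanged genes called beside them. It called 118 of 200 changed 4-fold, with 11 unchanged genes, and 0 where no gene was changed. The test of the difference between the sexes called 59 of 200 genes changed 4-fold, with 3 unchanged genes. The simulated libraries were drawn as independent, without the pairing by pool. A gene that did not pass can therefore still have changed, and a gene that passed can be unchanged. All 12 pairs of libraries of a group differed by more than sampling noise (chi-square 40.7 to 125 times its degrees of freedom). The labels do not tell which libraries share a litter. The fits therefore leave out the pairing of the populations by pool, and its effect on the p values and intervals was not tested.

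The genes named are the 10 subunits, every other tested integrin subunit, the 3 largest rises and 3 largest falls among passing genes of each list, and the 5 genes most like the passing subunit with the largest change. Other list genes were added after their values were seen. Genes withheld from the lists are not reported here. The alternatives were other scaling factors and filters, thinned counts, removal of each library's trend on exon length (mgcv 1.9.3), a further term that set libraries with numbers 13 to 16 apart, ARG1 status alone, DESeq2 1.42.0, a prior count of 0.5, each sex alone and each library left out in turn. Library totals with no scaling factor were added after seeing the data.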

Additional observations from a re-analysis of the deposited data

Results flagged for a closer look

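In 5 of 71 groups of 6 libraries searched (the integrin subunits and named pathway genes in each population), the library at one end stood apart from the rest by Dixon's criterion. Chance alone flags about 1 in 20 groups, or 3.55 here. *Itgal* reached 19.2 CPM in ARG1+ female replicate 15, where the next ARG1+ library had 8.68 CPM. *Itgb7* had 0.0334 CPM (1 count) in ARG1- male replicate 6 and 0 in the other 5 ARG1- libraries. *Dok2* had 1.59 CPM in ARG1- male replicate 5 and 0 in the other 5. Where the other 5 libraries are at 0, any count meets the criterion. The flags of *Itgb7* and *Dok2* thus carry no information on an outlier, and the rate of 1 in 20 does not hold for them. *Tns1* reached 17.8 CPM in ARG1- female replicate 2 (next 9.90 CPM), and *Plaur* reached 16.2 CPM in ARG1- male replicate 6 (next 7.04 CPM). The library of the *Itgb7* count is the one without which the adjusted p of *Itgb7* was above the limit (0.0584). No gene searched had all libraries of one population above the other in one sex and below in the other.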

How the results depend on the processing

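No paired analysis was possible because the replicate numbers in the labels are not shared between groups. The number of the 10 subunits past the limit, 1 with the settings as reported, was 2 with DESeq2 size factors and with upper-quartile factors (*Itgav* and *Itgb7*), 3 with DESeq2's Wald test (*Itgav*, *Itgax* and *Itgb7*), 3 with library totals alone (*Itgav*, *Itga6* and *Itgb7*), and 0 to 2 when each library was left out (0 without ARG1- male replicate 6, 2 with *Itgav* and *Itgb7* without ARG1+ female replicate 8, ARG1- male replicate 5 or ARG1+ male replicate 11). With at least 10 counts in every library it was 1, but then *Itgav*, since *Itgb7* was not among the 6 subunits tested. Of all genes, 4105 passed with DESeq2 (2141 higher, 1964 lower) in place of 2682, and 1753 to 2669 when each library was left out, the fewest without ARG1+ male replicate 12. Of the passing genes 40.6% were higher with TMM and 55.2% with library totals alone, where the median log2FC of all genes was 0.14 in place of 0.05. All 10 subunits, with *Itgb7* tested through ARG1+ libraries alone, had a fitted change above 0 with each of these scalings. Other integrin subunits past the limit went from 0 to 1 with at least 10 counts in every library and with DESeq2 (*Itga5*), and were 0 to 1 when each library was left out (1, *Itgad*, without ARG1- male replicate 14). Regulators, adaptors and kinases went from 14 to 8 without ARG1+ male replicate 12 (8 to 14 over the libraries left out), and ligands from 3 to 2 without some libraries (2 to 3). None of the 10 subunits passed in the difference between the sexes under any alternative. The sign turned in *Itgb1* in females alone (-0.046), in *Itgb2* in females alone (-0.12) and over the libraries left out (-0.048 to 0.093), in *Itgb5* in females alone (-0.25) and over the libraries left out (-0.040 to 0.084), and in *Itgb3* with the trend on exon length removed (-0.12) and over the libraries left out (-0.14 to 0.19). None of these was past the limit. Of the remaining values of single subunits under an alternative, 352 kept their direction and their side of the limit, 13 newly passed and 3 no longer passed (*Itgb7* without ARG1- male replicate 6 and in each sex alone), and 160 counts and pair ratios stayed within 1.5 times or 1 SD. Where a reason is not named, the cause was not tested. Depth limits *Itgb7*, *Itga4*, *Itgal* and *Itgax*, whose libraries hold 0 to 674 counts.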
